A study of Homo sapiens with 12 samples.

Results

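Open chromatin was examined at 8 human genes of telomere maintenance, namely the telomerase RNA gene TERC, the shelterin genes TERF1, TERF2, TERF2IP, POT1 and TINF2, and 2 genes whose proteins act on the telomerase complex, NAF1 and PINX1. The members are ATAC-seq peaks within 20 kb of the hg19 interval of each gene, taken by position alone. The genes themselves were chosen with earlier results of these data known. Over the 6 libraries 84 peaks met the rule of position, and they merged into 33 regions out of 84664 in the whole series. Chromatin accessibility was measured in H7, a line of human embryonic stem cells grown in mTeSR Plus, and in ARPE-19, a line of retinal pigment epithelium that arose spontaneously in culture, grown in DMEM with serum. Each line had 3 libraries of 500000 cells, neither line carried a treatment or an engineered allele per the labels, and each line stands for 1 donor. Nothing in the labels says that the replicates of a line are separate cultures, and the p-values below then cover only the spread among these libraries, which may be technical. The series title concerns expression of the telomerase reverse transcriptase, and the data ask here whether the genes of its partners are open in the same way in stem cells and in a differentiated line. The labelled cell types were not checked against marker genes, because positions of marker genes on hg19 were not used here.

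Telomerase lengthens chromosome ends by copying a template carried in its RNA subunit, TERC, and needs assembly factors to fold and load that RNA. Shelterin is the protein complex that coats telomeric repeats, hides them from the DNA damage response and controls the access of telomerase. Pluripotent stem cells keep telomerase active, whereas most differentiated cells do not, and the shelterin proteins are needed by dividing cells of any kind. In ATAC-seq the Tn5 transposase cuts and tags open DNA, and a peak is a stretch where reads pile up over the local background. A missing peak means that the stretch was not called at the depth of that library, not that it was closed. In cells measured in bulk, fewer cells with an open site and a less open site in each cell cannot be told apart.

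The libraries differed in their background of reads and in the length of their lists. The H7 lists held 8622 to 15351 peaks and the ARPE-19 lists 40110 to 48460. Total reads are not in the lists. A genome-wide background recovered from the deposited values was 0.592 to 0.653 expected reads per position in H7 and 0.425 to 0.483 in ARPE-19. It can stand for depth only if reads were filtered and extended alike in all libraries, which was not tested. A peak over that background needed at least 5 to 6 reads at its summit in H7 and 4 in ARPE-19. H7 replicate 3 had the shortest list.

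Fewer peaks lay near the 8 genes in H7 than in ARPE-19, by about the same factor as in the lists as a whole. H7 replicates 1, 2 and 3 had 5, 9 and 5 such peaks, and ARPE-19 replicates 1, 2 and 3 had 19, 23 and 23. Every H7 library was below every ARPE-19 library. The means were 6.33 ± 2.31 in H7 and 21.7 ± 2.31 in ARPE-19 (SD, n = 3 each), and the difference of H7 minus ARPE-19 was -1.74 (SE 0.28) on the log2(peaks + 0.5) scale (exact two-sided permutation test, p = 0.1). With 3 libraries against 3, 0.1 is the smallest p that this test can give, so no comparison of the libraries below can pass a threshold of 0.05. The same log2 difference over all peaks of the lists was -1.86. As a share of the peaks of its library, the 8 genes held 0.0326%, 0.0657% and 0.0580% in H7 replicates 1, 2 and 3, against 0.0427%, 0.0573% and 0.0475% in ARPE-19 replicates 1, 2 and 3. These shares overlapped, with a mean of 0.0521% ± 0.0173 in H7 and 0.0492% ± 0.0075 in ARPE-19 (SD, n = 3 each, exact permutation p = 0.8). The bases under these peaks were 1681 to 2088 in the H7 libraries and 6531 to 7462 in the ARPE-19 libraries, a difference of -1.89 (SE 0.11) on the log2(bases + 100) scale (exact permutation p = 0.1).

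**Figure D1:**
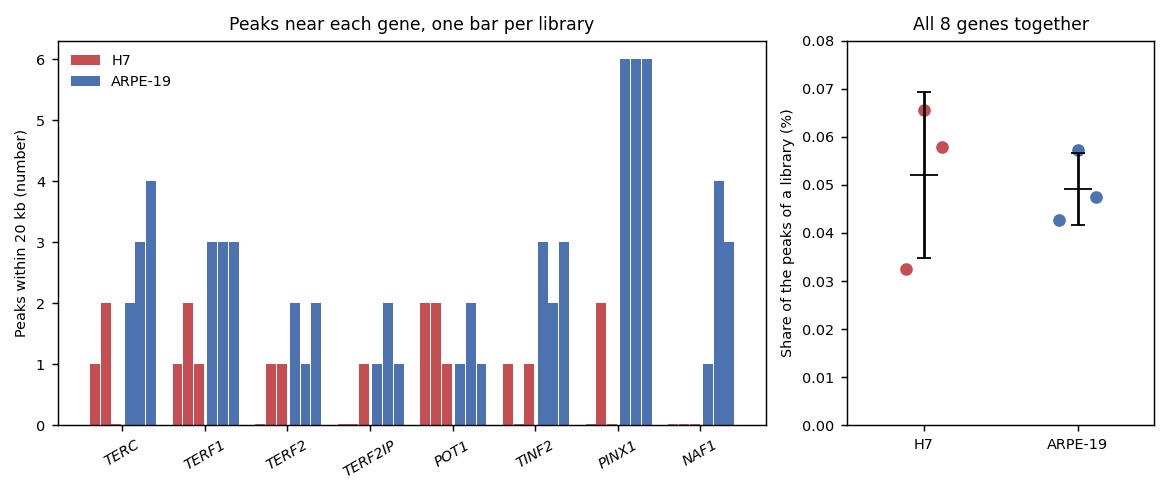
The left panel plots the number of peaks within 20 kb of each gene, with 1 bar per library, H7 (red, replicates 1 to 3) left of ARPE-19 (blue, replicates 1 to 3). The right panel plots the share (%) of the peaks of each library that lie near the 8 genes together, with points for libraries and the mean and SD in black. PINX1 had 6 peaks in each ARPE-19 library against 0, 2 and 0 in H7, while the shares of the lines overlap.

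By gene, the peak numbers of the lines did not overlap at TERF1, TINF2, PINX1 and NAF1, with ARPE-19 higher at each. This held at PINX1 and NAF1 also with windows of 5 and 50 kb and with a -log10 q of at least 5. At TINF2 it did not hold within 5 kb (difference of H7 minus ARPE-19 -0.33 peaks, exact permutation p = 1), nor at TERF1 with a -log10 q of at least 5 (-0.67 peaks, exact permutation p = 0.4). Within 50 kb it held at 6 genes, and with lists of equal length at PINX1 alone. With all peaks within 20 kb, that is 4 of 8 genes, where 41.7% of all bins of 100 kb that hold a peak had every ARPE-19 library above every H7 library. The opposite order was seen at 0 of 8 genes and in 2.06% of bins. The share of genes is therefore near that of the genome, and the gene windows are not all of the length of a bin. The largest difference was at PINX1, with 0, 2 and 0 peaks in H7 and 6 in each ARPE-19 library (exact permutation p = 0.1). At POT1 alone the mean was not lower in H7, with 2, 2 and 1 peaks in H7 and 1, 2 and 1 in ARPE-19 (exact permutation p = 1).

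The regions near the genes fell into classes much as regions of the whole genome did, with more of them called in both lines. Of the 33 regions, 8 were ARPE-19-only, called in 3 of 3 libraries of ARPE-19 and in none of H7, a class that held 26% of all merged regions. The count rests on the length of the lists and on the definition, with 1 such region for lists of equal length and 15 when 2 of 3 ARPE-19 libraries were enough. None was H7-only, defined the other way, a class that held 1.82% of all merged regions, so that none is close to what that share gives for 33 regions. Another 2 regions, at the starts of TERF1 and POT1, were called in all 6 libraries, again against 1.82% of all merged regions. A further 6 regions, or 18.2%, were called in both lines but not in all 6 libraries, against 6.69% of all merged regions. The remaining 17 were called in fewer than 3 libraries of a single line, 12 in ARPE-19 and 5 in H7, and each of the 5 in H7 was called in 1 library.

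With all called peaks, the regions shared between the lines lay mostly at the starts of these genes. A start was taken as the end of the hg19 interval from which the gene is read, and a region within 1 kb of it was counted as a start region. Starts of neighbouring genes were not placed on hg19, so regions counted here as others may lie at the start of a neighbour. There were 10 start regions, 12 in gene bodies, 6 upstream and 5 downstream. In ARPE-19, 15 regions were called in all 3 libraries, and of these the 5 at starts (TERF1, TERF2IP, POT1, TINF2 and PINX1) each had a peak in at least 1 H7 library. Of the 10 others, 2 did, upstream of TERC and downstream of TERF2. Genome-wide, an H7 peak was present at 17.3% of such regions. The 2 regions called in all 3 H7 libraries, at TERF1 and POT1, both had ARPE-19 peaks, as did 54.8% of such regions over the genome. These 5 start regions had a mean percentile of -log10 q within the ARPE-19 lists of 61.6 to 97.6 (median 90.2), against 24.1 to 87.6 (median 50.8) for the 10 others. The 5 start regions called in fewer ARPE-19 libraries were weaker, at a mean percentile of 12.2 to 52.6. A percentile ranks a peak within its own list, and since the lists differ in length, percentiles of H7 and ARPE-19 peaks do not measure a difference between the lines. Among all regions of the genome called in 3 of 3 ARPE-19 libraries with a mean percentile of at least that of the weakest of the 5 start regions, 18.9% had an H7 peak. Of the other regions of these genes, 3 reached that strength, 2 in the body of PINX1 and 1 in that of NAF1, and 0 of the 3 had an H7 peak. Start regions were also wider, with a median of 393 bases for the 10 against 295 for the 23 others, and an overlap of 1 base was enough for sharing. The sharing at starts depended on the threshold. With a -log10 q of at least 5, only TERF1 and POT1 kept start peaks in both lines. TERF2IP, TINF2 and PINX1 then had start peaks in 3 ARPE-19 and 0 H7 libraries. The shared regions upstream of TERC and downstream of TERF2 kept peaks in both lines, with -log10 q of 7.79 and 6.30 in H7 replicate 2. Regions are not independent replicates and the difference between start regions and the others was not tested. Start sites over the genome were not examined here, so whether such sharing is particular to these genes was not tested.

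**Figure D2:**
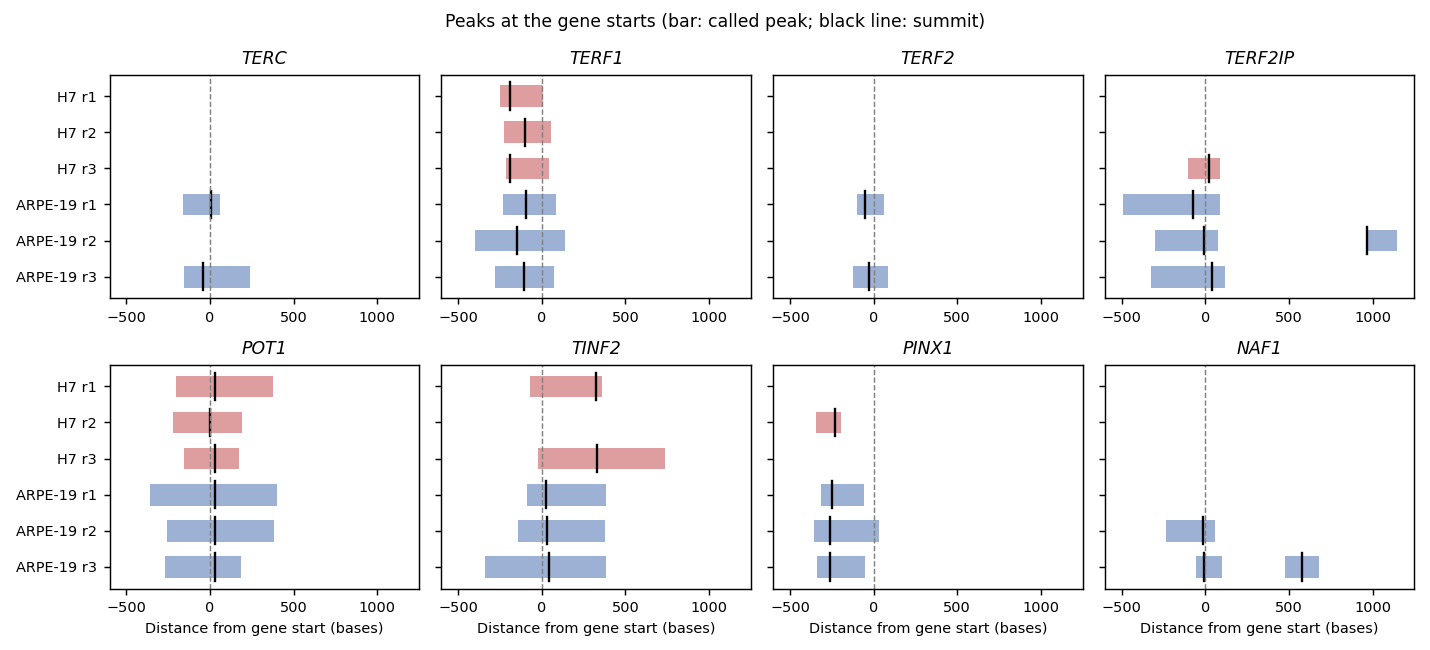
Each panel is 1 gene and plots the peaks called within 1 kb of its start against the distance from the start (bases, positive into the gene), with 1 row per library, H7 (red) above ARPE-19 (blue). Bars span the called peaks and black lines mark summits. TERF1 and POT1 have a peak in all 6 rows, TERC, TERF2 and NAF1 have none in the 3 H7 rows, and the summits at TINF2 lie 324 and 331 bases into the gene in H7 against 28 to 44 in ARPE-19.

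Counted per library, 3, 3 and 4 of the 8 genes had a start peak in H7 replicates 1, 2 and 3, against 7, 6 and 8 in ARPE-19 replicates 1, 2 and 3. The libraries did not overlap, with a mean of 3.33 ± 0.58 genes in H7 and 7 ± 1 in ARPE-19 (SD, n = 3 each, exact permutation p = 0.1). The lists as a whole held a mean of 12560 peaks in H7 and 44342 in ARPE-19. Starts of other genes were not examined, so no genome-wide share stands beside this count of genes. When each list was shortened to its 8622 most significant peaks, the length of the shortest list, the counts were 3, 2 and 4 in H7 and 3 in each ARPE-19 library. The genes that then had a start peak in ARPE-19 were TERF1, POT1 and PINX1, each in 3 of 3 libraries. In H7 they were TERF1 and POT1 in 3 of 3, TINF2 in 2 of 3 and TERF2IP in 1 of 3 libraries.

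The start regions of TERF2IP, POT1 and TINF2 can be set beside their sequence, since RefSeq promoter windows were at hand for these 3 genes. The 100 bases before the RefSeq start are shown for them because the start peaks of both lines cover a stretch of this position or end in it. They are given 5′ to 3′ on the strand of the gene, from GRCh38.p14, at chr16:75647673-75647772 (plus strand), chr7:124929826-124929925 (minus strand) and chr14:24242675-24242774 (minus strand). Capitals mark matches to 7 motifs searched on both strands.
TERF2IP: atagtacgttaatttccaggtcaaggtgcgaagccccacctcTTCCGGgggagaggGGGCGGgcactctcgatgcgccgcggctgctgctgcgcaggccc
POT1: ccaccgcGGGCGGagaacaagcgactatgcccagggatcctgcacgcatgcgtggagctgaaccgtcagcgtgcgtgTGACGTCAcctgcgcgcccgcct
TINF2: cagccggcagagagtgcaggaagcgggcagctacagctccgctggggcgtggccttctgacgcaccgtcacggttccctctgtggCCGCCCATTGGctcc
All 3 hold a GC box (GGGCGG), which 31.3% of the 35116 RefSeq windows of the same length hold. TERF2IP also holds an ETS core (CCGGAA), on the strand opposite to the one printed, which 8.81% of windows hold. POT1 holds the palindrome of the cyclic AMP response element (TGACGTCA) from 23 to 16 bases before the start, which 1.17% of windows hold. TINF2 holds a CCAAT box (CCAAT) on the opposite strand, directly after its GC box, and 18.1% of windows hold one. The YY1 core (AAGATGG), the NRF1 core (GCATGCGC) and the TATA box (TATAAA) were also searched and are not in these 3 windows. The 3 windows were 66%, 68% and 69% G or C in TERF2IP, POT1 and TINF2, against a median of 60% over the windows. A match is a description of letters and not of binding. The peaks are on hg19, and the gene intervals of the 2 builds differ in length by 20 bases for TERF2IP, 158 for POT1 and 3 for TINF2, so the RefSeq start can lie that far from the start used for the peaks.

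TERC encodes the RNA template of telomerase. Its start region lay on chromosome 3 from 169482607 to 169483007 and was called in no H7 library and in 2 ARPE-19 libraries. ARPE-19 replicates 1 and 3 had 15 and 14 reads at the summit, recovered from the deposited fold and -log10 p, over a local background of 1.44 and 1.62 reads. The peaks stood at the 59.5th and 45.7th percentile of -log10 q within their lists. The summits lay 4 bases inside the gene in replicate 1 and 39 bases before the start in replicate 3. An H7 library with the same local background would have needed 8 to 9 summit reads for a call, so a summit of 14 or 15 reads could have been called there and one of fewer than 8 reads could not.

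Further peaks near TERC lay on its upstream side, where the GRCh38 RefSeq table places ACTRT3 and a tRNA gene. Whether they lie at the start of a neighbouring gene, one of these or another, was not examined. The region shared between the lines, from 169490934 to 169491530 and thus 8086 to 8682 bases upstream, was called in 1 H7 library and all 3 ARPE-19 libraries. It had 16 summit reads in H7 replicate 2, against 15, 11 and 16 in ARPE-19 replicates 1, 2 and 3. The regions from 169487132 to 169487427 and from 169489695 to 169490055 were each called in 2 ARPE-19 libraries with 8 to 11 summit reads. H7 replicate 1 had a peak of 11 summit reads close by, from 169490075 to 169490324, and H7 replicate 2 had one of 10 reads from 169462313 to 169462570, downstream of the gene.

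TERF1 encodes TRF1, a shelterin protein that binds duplex telomeric repeats and limits telomere length. Its start was open in all 6 libraries, on chromosome 8 from 73920695 to 73921233. The summits held 17, 16 and 17 reads in H7 replicates 1, 2 and 3, against 41, 39 and 37 in ARPE-19 replicates 1, 2 and 3. The groups did not overlap, and the mean was 16.7 ± 0.58 reads in H7 and 39 ± 2 in ARPE-19 (SD, n = 3 each), a log2 ratio of -1.23. Over the 1539 regions called in all 6 libraries whose reads could be recovered, the median log2 ratio was -0.43, and 10.2% of them had a ratio as low as that of TERF1 or lower. Divided by the genome-wide background of each library, the log2 ratio was -1.69 at TERF1 and -0.89 at the median region. The summits lay 99 to 190 bases before the start in H7 and 93 to 148 bases before it in ARPE-19.

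Within TERF1, 2 regions were ARPE-19-only. The first lay from 73924089 to 73924383, 2992 to 3286 bases into the gene, with 12 summit reads in each ARPE-19 library. The other lay from 73940606 to 73940893 with 12, 7 and 9 reads in ARPE-19 replicates 1, 2 and 3, which stood at the 66.2nd, 32.8th and 44.2nd percentile of their lists. H7 replicate 2 had a peak of its own upstream, from 73914689 to 73914886, with 8 reads.

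TERF2 encodes TRF2, the shelterin protein that forms and guards the telomeric loop. Its start region, on chromosome 16 from 69419802 to 69420014, was called in 0 of 3 H7 libraries and in ARPE-19 replicates 1 and 3, with 9 and 10 summit reads. These peaks were below the middle of their lists, at the 43.5th and 40.9th percentile. The local background of these peaks was 0.615 and 0.790 reads. At 0.790 reads each H7 library could have called 6 summit reads. The lower value is below the genome-wide background of H7 replicates 1 and 3, 0.653 and 0.633, where a call needed at least 5 and 6 reads. In H7 replicate 2 a call at 0.615 reads would have needed 5. The other region near TERF2 lay downstream, from 69373166 to 69373675, on the side of TMED6 and NIP7. Whether this region lies at the start of a neighbouring gene was not examined. It had 12 and 11 summit reads in H7 replicates 2 and 3, with no peak in replicate 1, against 13, 9 and 8 in ARPE-19 replicates 1, 2 and 3.

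TERF2IP encodes RAP1, which joins shelterin by binding TRF2. Its start region, on chromosome 16 from 75681156 to 75681765, had a peak in H7 replicate 3 and in all 3 ARPE-19 libraries. The summit held 10 reads in H7 replicate 3, against 18, 15 and 16 in ARPE-19 replicates 1, 2 and 3. The H7 peak stood at the 22.8th percentile of its list, and the ARPE-19 peaks at the 62.9th to 73.4th. The summits of both lines lay within 72 bases of the start. In the GRCh38 table the start of KARS1, the lysyl-tRNA synthetase gene on the other strand, is 108 bases from that of TERF2IP, and the 3 ARPE-19 peaks, which reached 300 to 494 bases before the TERF2IP start, covered both starts and cannot be given to a single gene. The H7 peak reached 103 bases before the start of TERF2IP, which falls short of that distance, and the distance is from the other build. ARPE-19 replicate 2 had a further weak peak from 75682614 to 75682796, 964 bases into the gene, with 7 reads.

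POT1 encodes the shelterin protein that binds the single-stranded telomeric overhang. Its start, on chromosome 7 from 124569635 to 124570394, was the strongest region of the 8 genes in H7. The summits held 29, 26 and 22 reads in H7 replicates 1, 2 and 3, against 35, 27 and 28 in ARPE-19 replicates 1, 2 and 3. The lines overlapped in reads, with means of 25.7 ± 3.51 in H7 and 30 ± 4.36 in ARPE-19 (SD, n = 3 each), a log2 ratio of -0.23, where the median over the regions called in all 6 libraries was -0.43. Divided by the genome-wide background of each library, the values no longer overlapped. They were 34.8 to 44.4 in H7 and 59.0 to 72.5 in ARPE-19. The log2 ratio was then -0.68, while that of the median region was lower, at -0.89. Neither here nor at TERF1 was it counted how many of the regions called in all 6 libraries also separate the lines. The peaks stood at the 97.1st to 99.1st percentile of the H7 lists and the 92.4th to 96.7th of the ARPE-19 lists. The summits lay within 33 bases of the start in every library. The start of the antisense gene POT1-AS1 is 48 bases away on the other strand in the GRCh38 table. Every peak reached at least 158 bases before the POT1 start, beyond that distance, but the distance is from the other build. Here too the peak may cover the starts of both genes. In H7, replicate 1 had a peak of 8 reads in the gene body from 124496486 to 124496648 and replicate 2 one of 6 reads from 124556966 to 124557138, and ARPE-19 replicate 2 had one of 6 reads upstream, from 124583613 to 124583751.

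TINF2 encodes TIN2, the shelterin protein that links TRF1 and TRF2 to the proteins on the overhang. Its start region, on chromosome 14 from 24711146 to 24712219, had peaks in H7 replicates 1 and 3 and in all 3 ARPE-19 libraries. The summits held 11 and 13 reads in H7 replicates 1 and 3, against 13, 19 and 17 in ARPE-19 replicates 1, 2 and 3. The place of the summit differed between the lines. It lay 324 and 331 bases into the gene in H7 replicates 1 and 3, and 28, 34 and 44 bases into it in ARPE-19 replicates 1, 2 and 3, although the peaks of both lines spanned the start. With 2 and 3 libraries this shift was not tested. Downstream, on the side of GMPR2 and NEDD8, the region from 24693843 to 24694177 was ARPE-19-only with 14, 11 and 8 reads in replicates 1, 2 and 3. The region from 24701697 to 24702072, on the same side, was called in ARPE-19 replicates 1 and 3 with 12 reads each. Whether these downstream regions lie at the starts of neighbouring genes was not examined.

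**Figure D3:**
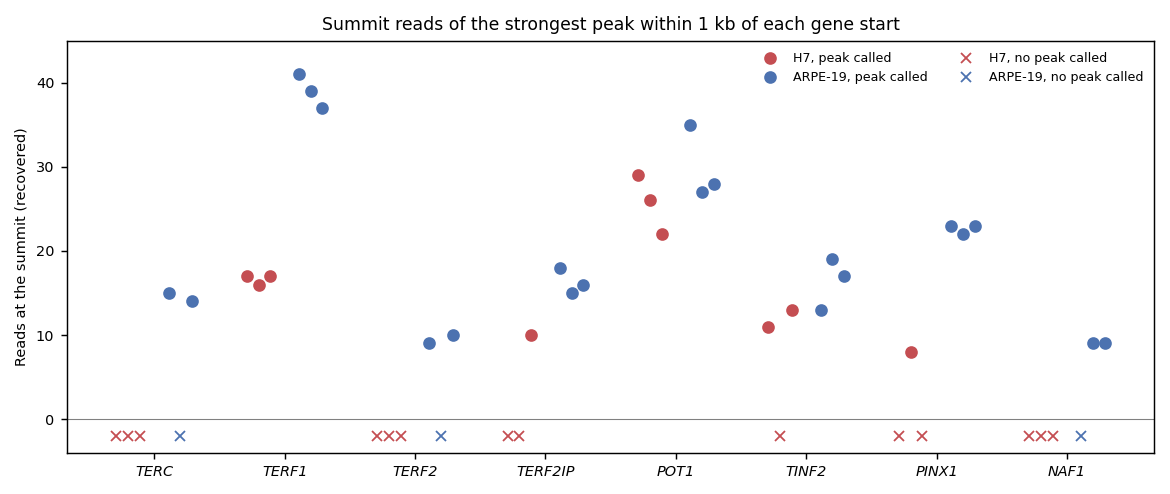
For each gene the recovered reads at the summit of the strongest peak within 1 kb of the start are plotted by library, H7 (red) left of ARPE-19 (blue), with crosses below the zero line for libraries without a called peak, where the reads are not known. TERF1 separates the lines, with 16 to 17 reads in H7 against 37 to 41 in ARPE-19. At POT1 the lines overlap in reads as plotted, but not once divided by the genome-wide background. The log2 ratio is then -0.68 at POT1 and -0.89 at the median region called in all 6 libraries.

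NAF1 encodes an assembly factor of the ribonucleoproteins of the H/ACA class, to which TERC belongs. It was the only gene of the 8 with no peak in any H7 library, against 1, 4 and 3 peaks in ARPE-19 replicates 1, 2 and 3. Its start region on chromosome 4, from 164087974 to 164088311, was called in ARPE-19 replicates 2 and 3 with 9 summit reads each, at the 34.7th and 25.8th percentile. At the local backgrounds of the NAF1 start peaks an H7 library could have called 6 to 7 reads. ARPE-19 replicate 3 had another peak from 164087395 to 164087596, 477 bases into the gene, with 8 reads. The strongest region near NAF1 was in the gene body and ARPE-19-only, from 164058641 to 164059043, 29030 to 29432 bases from the start. It held 22, 19 and 16 reads in ARPE-19 replicates 1, 2 and 3, at the 90.1st, 91.2nd and 81.7th percentile. ARPE-19 replicate 2 alone had weak peaks from 164069872 to 164070071 with 5 reads and from 164035474 to 164035668 with 4 reads, the fewest of any peak near the 8 genes. The hg19 interval of NAF1 is 40214 bases long, against 62962 bases in the GRCh38 table. The window, and what counts as start, body or downstream of NAF1, may therefore depend on the annotation.

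PINX1 encodes a nucleolar protein that binds TRF1 and inhibits telomerase. Its start region lay on chromosome 8 from 10697269 to 10697653, was called in H7 replicate 2 and in all 3 ARPE-19 libraries, and had its summits 228 bases before the start in H7 and 249 to 261 bases before it in ARPE-19. The summit of the start region held 8 reads in H7 replicate 2, against 23, 22 and 23 in ARPE-19 replicates 1, 2 and 3. The H7 peak stood at the 10.5th percentile of its list and the ARPE-19 peaks at the 88.6th to 91.6th.

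The body of PINX1 held 4 of the 8 ARPE-19-only regions, and 0 with lists of equal length. In those shorter lists 2 regions of the body were still called in ARPE-19 and not in H7, one in 2 libraries and the other in 1. The 4 regions lay from 10641071 to 10641658, from 10651284 to 10651598, from 10657273 to 10657604 and from 10661764 to 10661970, between 35329 and 56228 bases into the gene. Their summits held 16 to 21, 11 to 14, 20 to 21 and 9 to 15 reads in the 3 ARPE-19 libraries. One more region among them, from 10659220 to 10659447, was called in ARPE-19 replicates 1 and 2 with 14 and 15 reads. No H7 library had a peak at any of these 5 regions. Another region in the gene body, from 10682786 to 10683253, was called in 1 library of each line, with 8 reads in H7 replicate 2 and 7 in ARPE-19 replicate 3.

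**Figure D4:**
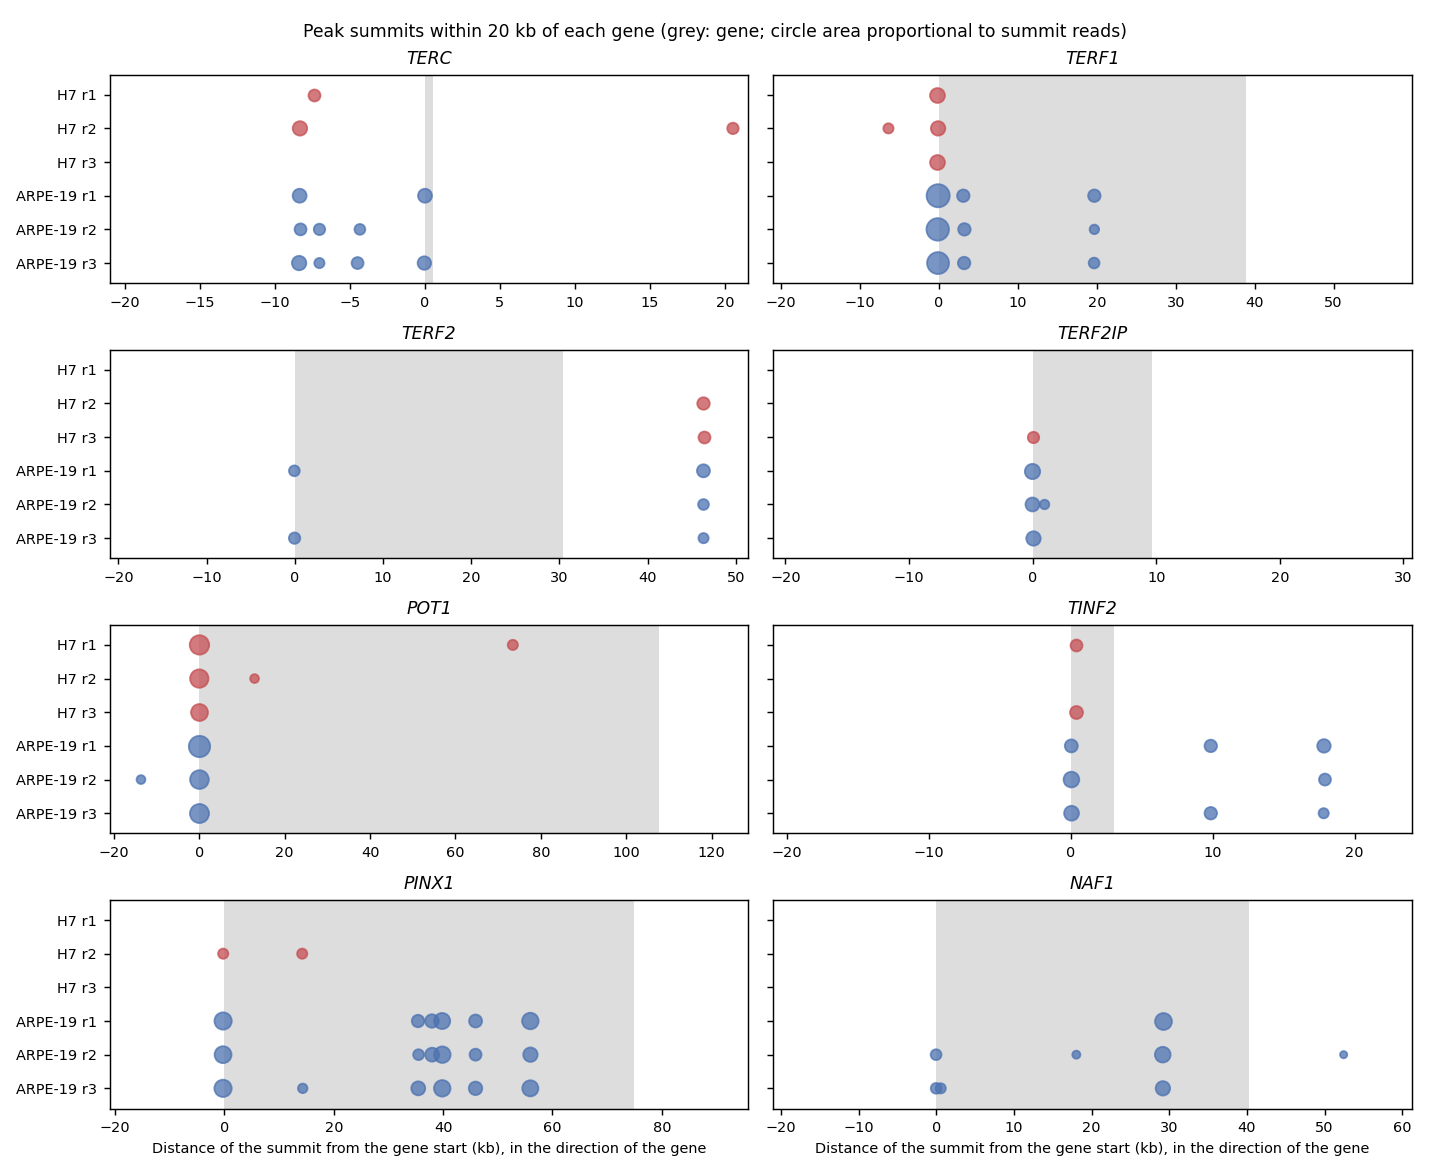
Each panel is 1 gene, with the gene in grey, and plots the summit of each peak within 20 kb against its distance from the gene start (kb, in the direction of the gene), with 1 row per library, H7 (red) above ARPE-19 (blue). The area of a circle is proportional to the summit reads. In PINX1 the 5 positions between 35410 and 55973 bases are seen in ARPE-19 rows, and in NAF1 no H7 row has a circle.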

How the data were processed

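ATAC-seq peak lists of 3 H7 and 3 ARPE-19 libraries were used, and the 4C samples were left out. The submitters' processing notes name hg19, MACS2 and bedtools without versions. The aligner, the handling of duplicates and of mitochondrial reads, and any Tn5 shift are not given in the sources used here. An unshifted read set would move summits by a few bases. The deposited columns hold, per peak and library, a score (10 times the -log10 q as a whole number), a fold enrichment over the local background as a ratio, and -log10 values of p and q. They were used within a library. Peaks were called per library.

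Positions are 1-based. The genes, lists and motifs were chosen with earlier results of these data known. The named regions are every region within 1 kb of a gene start and, for each gene, the other region called in most libraries, and the remaining regions are given in addition, chosen after their values were seen. The strand of 3 genes came from the RefSeq promoter table of GRCh38.p14, and that of the other 5 from textbook knowledge. Gene models of hg19 beyond the 8 intervals were not used here, so further telomere genes, exons and introns were not examined. Neighbour names come from the GRCh38.p14 RefSeq table.

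Peaks that overlapped by at least 1 base were merged over the libraries. Summit reads and local background were solved from fold and -log10 p under the Poisson model of MACS2, and met the deposited -log10 p within 0.001 for all 84 peaks near the genes. Reads may include duplicates, and counting error alone limits peaks of few reads. Line means were compared by exact permutation, two-sided, with 20 assignments of the libraries. The recovery of reads and the classes of merged regions were tested on simulated data, where 100% of 2000 read numbers were recovered. Tools were scipy 1.17.1, pandas 2.3.3, numpy 2.4.6 and matplotlib 3.10.9 under Python 3.11.15. Alternatives tried were a stricter -log10 q (5 or more), equal list lengths, one -log10 p threshold of 4.31 (added after the data were seen), windows of 5 and 50 kb, other start windows, stricter overlap, looser classes and leaving out each library.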

Additional observations from a re-analysis of the deposited data

How the results depend on the processing

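The peak count near the 8 genes and the covered bases stayed lower in H7, and the number of genes with a start peak lower or equal, except as follows, and no alternative could take an exact test below 0.05. With lists shortened to equal length, the log2 difference in peak count became 0.18 (exact permutation p = 0.6), 1 gene in place of 4 had lines that did not overlap, the mean peak number of H7 minus ARPE-19 became 1.00 at TERC, 0.67 at TERF2, 0.33 at TERF2IP and 0.67 at TINF2, and 1 region was ARPE-19-only. That setting shortens every list but that of H7 replicate 3. The share of peaks had no stable direction, with a difference of -0.0014 percentage points for a window of 5 kb and of -0.0039 to 0.0126 over the 6 settings that omit a library. With at least 2 of 3 libraries, 15 regions were ARPE-19-only, and 0 were called in all 6 libraries where a peak had to cover 50% of the region. Only TERF1 and POT1 had start peaks in both lines with a -log10 q of at least 5, and likewise with lists of equal length. Divided by the genome-wide background, the log2 ratio of start reads was -1.69 at TERF1 and -0.68 at POT1. Leaving out each library in turn, H7 replicate 3 included, gave log2 differences in peak count of -2.01 to -1.61, 8 to 11 ARPE-19-only and 0 H7-only regions, 2 to 3 regions in all remaining libraries, and start ratios of -1.26 to -1.19 at TERF1 and -0.32 to -0.10 at POT1. Libraries that share a replicate number did not deviate together over 1539 regions (r = -0.014, 0.017 and -0.019). Pairs with unlike numbers gave r of -0.026 to 0.042. With 3 libraries per line, this does not show whether libraries of the same number were prepared together. With a replicate block the log2 difference in peak count was -1.74 (exact sign-flip test, p = 0.25, the smallest it can give) and no call changed.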
